A study of Mus musculus with 10 samples.

Results

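The 10 genes described here make up the non-canonical NF-kB pathway around NIK, the NF-kB inducing kinase. They were chosen by name as the kinase gene Map3k14, the receptors Ltbr and Tnfrsf12a, the regulators Traf2, Traf3, Birc2 and Birc3, the downstream kinase Chuk, and the NF-kB subunits Nfkb2 and Relb. All 10 had a row among the 55401 genes of the deposited table. Poly(A)-selected liver RNA came from 5 mice labelled NIKflox and 5 labelled NIKhKO (written NIKF/F and NIKHKO in the study's design), and the study title names hepatic NIK as its subject. NIKF/F names the floxed allele without a deletion. What hKO abbreviates, the Cre driver, the deleted exons and the age of the mice are not given in the sources used here. Mice of both groups drank a Lieber-DeCarli liquid diet that held 5% ethanol, over 4 weeks, so no comparison with ethanol-free livers was made. No label says whether libraries came from separate litters or cages, and p-values then measure only the spread between these samples.

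In the non-canonical NF-kB pathway, NIK is made continuously but kept scarce, because TRAF3 holds it in a complex with TRAF2 and the ubiquitin ligases cIAP1 and cIAP2 (encoded by Birc2 and Birc3), which mark it for the proteasome. Ligands of a subset of TNF receptors, among them the lymphotoxin beta receptor and the TWEAK receptor Fn14 (encoded by Tnfrsf12a), recruit these adaptors and let NIK accumulate. NIK then activates IKK alpha (encoded by Chuk), which marks the precursor p100 (encoded by Nfkb2) for processing to p52, the partner of RelB in the nucleus. Much of this control acts on protein, and only RNA was measured here.

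The libraries held 47161869 to 65052525 estimated counts each. Per library 823 to 969 genes had a count of 4, against 314 to 356 at a count of 3 and 156 to 196 at 5. A count may therefore be worth less than a read pair, and totals may overstate depth. Summed FPKM (fragments per unit of transcript length and of library size) of 6 hepatocyte markers ran from 36336 to 50025 in NIKflox and from 39480 to 46885 in NIKhKO. NIKflox 4 and NIKflox 2 stood apart by transcripts of heart muscle, with 36 and 7.72 FPKM summed over 9 markers against 0.450 to 1.20 FPKM in the other 8 libraries. Of the 9, Actc1, Myl2 and Myl3 were listed at 0 counts in those 8 libraries. NIKflox 2 also held 19.2 FPKM of 4 adipose markers, against at most 1.32 FPKM elsewhere. Values without NIKflox 2 and 4 are given beside several of the results.

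Map3k14, the targeted gene, read lower in every NIKhKO liver than in any NIKflox liver, but the difference did not pass the test over all genes. NIKflox 1 to 5 read 0.553, 0.510, 0.585, 0.899 and 0.483 FPKM. NIKhKO 1 to 5 read 0.347, 0.361, 0.443, 0.389 and 0.373 FPKM. The groups did not overlap, and the gap between the lowest NIKflox and the highest NIKhKO library was small beside the distance of NIKflox 4 from its own group. The means were 0.606 ± 0.168 FPKM and 0.383 ± 0.0372 FPKM (SD, n = 5 each), and the exact two-sided permutation test gave p = 0.0079, the smallest that 252 arrangements allow. In edgeR's quasi-likelihood test, with p-values adjusted by Benjamini-Hochberg over 12750 genes, the log2 fold change (NIKhKO minus NIKflox) was −0.59 (SE 0.19, adjusted p = 0.33). By that fit NIKhKO livers held 66.6% of the NIKflox level, with a 95% interval from 49.9% to 88.8%. This value covers the whole gene, and the deleted exons are not given. It therefore does not measure how much intact Map3k14 RNA was left.

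NIKflox 4 set part of the size of the Map3k14 difference. Without it the NIKflox mean was 0.533 ± 0.0449 FPKM (SD, n = 4), of which the NIKhKO mean is 71.8% instead of 63.1%, and the log2 fold change was −0.42 (adjusted p = 0.50). Without NIKflox 2 and 4 together it was −0.45 (adjusted p = 0.59). Map3k14 rested on 145 to 427 estimated counts per library, and spans chr11:103219762-103267472 on the minus strand (coordinates as in the table, read as GRCm38). The only overlapping gene of the table, 1700028N14Rik, was listed at 0 counts in all 10 libraries. In these bulk samples fewer cells of a type and less RNA per cell cannot be told apart. Summed markers of Kupffer cells and macrophages (10 genes, 155 to 264 FPKM in NIKflox and 173 to 260 FPKM in NIKhKO) and of sinusoidal endothelial cells (10 genes, 56.4 to 69.7 against 40.5 to 67.1 FPKM) show that other liver cells are in every library. Log2 fold changes were positive in 9 and negative in 1 of the Kupffer cell and macrophage markers. Sinusoidal endothelial markers had 3 positive and 7 negative. Stellate cell markers summed to 116 to 179 FPKM in NIKflox and 96.0 to 133 FPKM in NIKhKO. All 9 of their log2 fold changes were negative, where 6603 of all 12750 genes tested were negative. Cholangiocyte markers summed to 26.4 to 46.8 against 16.1 to 27.6 FPKM, with negative log2 fold changes in all 4 tested of 6. Most of that sum was Spp1 alone, at 23.54 to 42.7 FPKM in NIKflox and 14.1 to 23.50 FPKM in NIKhKO, just apart. Krt19 was also apart, at 0.987 to 1.16 FPKM in NIKflox and 0.308 to 0.832 FPKM in NIKhKO. The other cholangiocyte markers overlapped, and 2.2% of all genes tested had ranges apart. In each of these lists of liver cell markers 0 was called. The part of any of these cells in the Map3k14 difference was not tested.

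**Figure D1:**
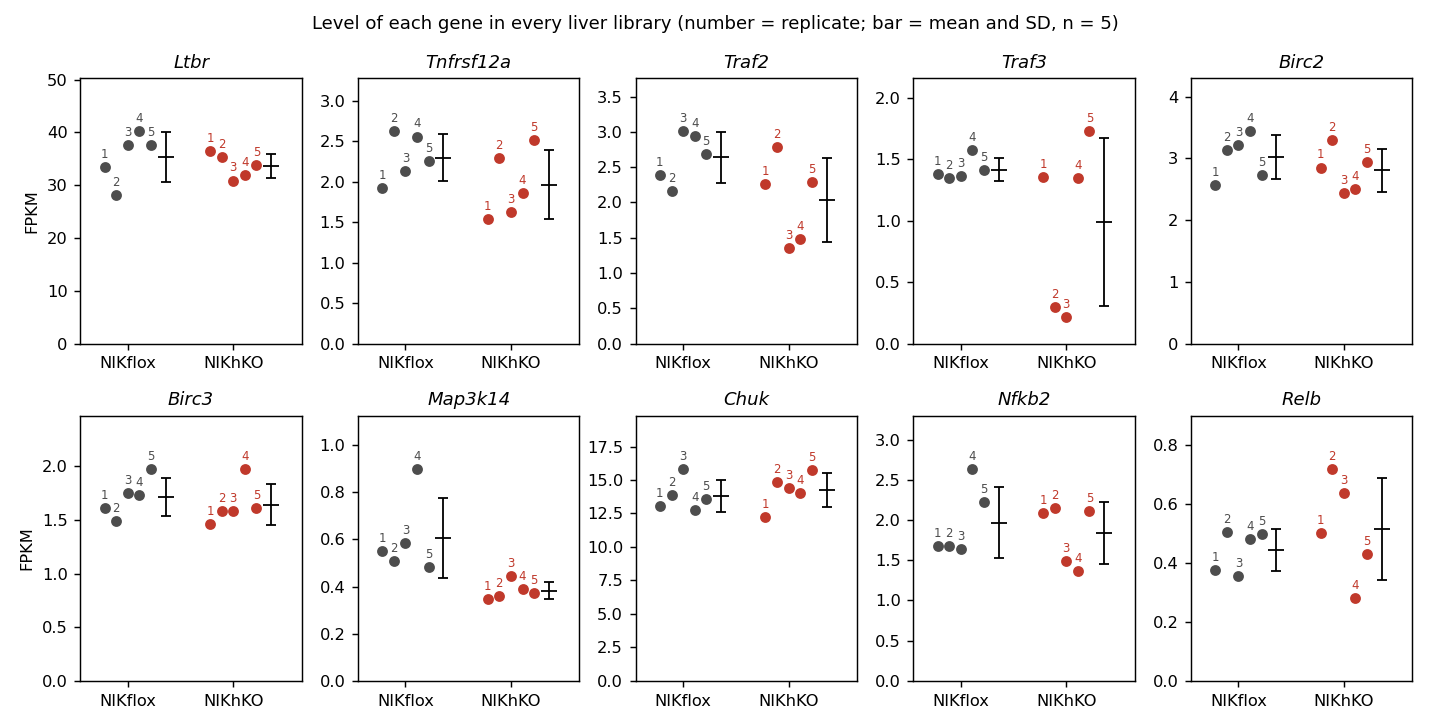
FPKM (vertical axis, linear from 0, a separate scale per gene) of the 10 genes in each library, numbered by replicate, with NIKflox in grey and NIKhKO in red; bars are the mean and SD of 5 libraries. The groups are apart for Map3k14, while Traf3 is split within NIKhKO, with replicates 2 and 3 at 0.301 and 0.218 FPKM.

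Of the 10 genes, 0 passed edgeR's quasi-likelihood test at an adjusted p below 0.05, where 0.0235% of all 12750 genes tested did (3 genes). At an unadjusted p below 0.05 there was 1, Map3k14, where 9.98% of all genes lay below that value. The genotypes had separate ranges in 1 of the 10 genes, again Map3k14, against 2.2% of all genes. DESeq2 and limma on log2(FPKM + 1) also called 0 of the 10. The log2 fold change was positive for 3 genes and negative for 7, with a median of −0.04, and over all genes the median was −0.01. The 2 genes with a mean level under 0.5 FPKM, Map3k14 and Relb, would have missed the filter on low values and were tested all the same.

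Per unit of transcript length, the receptor Ltbr was the most abundant of the 10, followed by Chuk. In NIKflox livers Ltbr read 35.4 ± 4.74 FPKM and Chuk 13.8 ± 1.21 FPKM (SD, n = 5 each), with ranges apart from each other and from every other gene of the set. Averaged over the 10 libraries, Ltbr lay above 90.9% and Chuk above 81.6% of the genes with a mean of at least 0.5 FPKM. Birc2, Traf2, Tnfrsf12a, Nfkb2, Birc3 and Traf3 followed in that order, from 3.02 to 1.42 FPKM on average, and each overlapped its neighbour in the order. Map3k14 and Relb (0.444 ± 0.0717 FPKM, SD, n = 5) were the scarcest, overlapped each other, and lay below all other members in NIKflox livers.

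Neither receptor passed the test. Ltbr encodes the lymphotoxin beta receptor, the main receptor of the pathway for lymphotoxin and LIGHT. It read 33.4, 28.2, 37.7, 40.2 and 37.7 FPKM in NIKflox 1 to 5 and 36.4, 35.3, 30.9, 31.9 and 33.8 FPKM in NIKhKO 1 to 5. All NIKhKO values lay inside the NIKflox range. NIKhKO was at 99.4% of NIKflox in the edgeR fit, with a 95% interval from 86.6% to 114% (log2 fold change −0.01, SE 0.09, adjusted p = 0.99). Tnfrsf12a encodes Fn14, the receptor for TWEAK, which is low in resting liver and known to rise in injury. Its values were 1.92 to 2.62 FPKM in NIKflox and 1.54 to 2.52 FPKM in NIKhKO, at 89.4% of NIKflox (95% interval 68.8% to 116%, adjusted p = 0.82). NIKflox 2 and 4 were its highest libraries, and the log2 fold change went from −0.16 to −0.05 without them.

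The regulators that hold NIK down gave the widest and the narrowest spreads of the set. Birc2 and Birc3, neighbours on chromosome 9 (chr9:7818227-7837063 and chr9:7848699-7873170), encode the ubiquitin ligases cIAP1 and cIAP2. They are close paralogs, and reads shared by both may have been assigned to either, so each level is uncertain. Birc2 read 3.02 ± 0.354 FPKM in NIKflox livers against 2.81 ± 0.346 in NIKhKO livers, and Birc3 read 1.71 ± 0.180 and 1.64 ± 0.194 FPKM (SD, n = 5 each). Both genotypes overlapped almost wholly. The 95% intervals ran from 83.1% to 114% of NIKflox for Birc2 and from 82.9% to 121% for Birc3, with adjusted p-values of 0.94 and 0.998 in edgeR.

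Traf2, the adaptor that brings the cIAP ligases to the complex, had the next smallest p after Map3k14. It read 2.40, 2.16, 3.01, 2.94 and 2.69 FPKM in NIKflox 1 to 5 and 2.26, 2.79, 1.36, 1.49 and 2.28 FPKM in NIKhKO 1 to 5. NIKhKO 3 and 4 lay under all other libraries, while the other 3 NIKhKO livers fell inside the NIKflox range. NIKhKO 3 and 4 also had the highest mitochondrial shares of all counts, 12.2% and 12.8% against 7.16% to 11.6% elsewhere, and the part of this in the Traf2 level was not tested. The log2 fold change was −0.32 (SE 0.18, adjusted p = 0.61 in edgeR), or 80.4% of NIKflox with a 95% interval from 61.3% to 105%. It stayed negative with each library left out in turn, from −0.42 without NIKhKO 2 to −0.21 without NIKhKO 3.

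Traf3, the adaptor that binds NIK itself, was split within the NIKhKO group. The NIKflox livers read 1.38, 1.35, 1.37, 1.58 and 1.41 FPKM, the tightest of the 10 genes in that group (coefficient of variation 6.64%). The NIKhKO livers read 1.36, 0.301, 0.218, 1.35 and 1.73 FPKM, the widest of the set (69.2%). NIKhKO 2 and 3 thus stood at 20.9% and 15.1% of the mean of the other 8 libraries, which was 1.44 ± 0.139 FPKM (SD). These values rest on 159 and 103 estimated counts, against 522 to 865 in the other libraries. The ratio of count to FPKM, scaled to the library total, varied by at most 1.03-fold over the libraries, and by 1.02-fold for each other member. Counts and FPKM are 1 estimate by the authors on 2 scales. If both use a fixed length per gene, the ratio could not show a change of transcript length. Whether the estimate reflects the RNA of these 2 livers was not tested, since the reads were not analysed here.

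The edgeR log2 fold change of Traf3 was −0.45 (SE 0.48, adjusted p = 0.82), and without NIKhKO 2 and 3 it was 0.13 (SE 0.13, adjusted p = 0.89), with the remaining NIKhKO livers at 1.48 FPKM on average. Among all 12750 genes, 3 had both NIKhKO 2 and 3 under 0.5 times the lowest of the other 8 libraries: Traf3, the histone gene H3c15 and the unnamed locus Gm35106 (the last 2 named after their values were seen). The antisense gene 4930595D18Rik, which overlaps the first part of Traf3 (chr12:111166370-111267153), was listed at 0 counts in every library.

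Chuk, which encodes IKK alpha, the kinase that NIK activates, varied little. It read 12.7 to 15.8 FPKM in NIKflox and 12.2 to 15.8 FPKM in NIKhKO, with 3430 to 5462 estimated counts per library. NIKhKO was at 108% of NIKflox, with a 95% interval from 92.8% to 125% (log2 fold change 0.11, SE 0.10, adjusted p = 0.78 in edgeR).

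**Figure D2:**
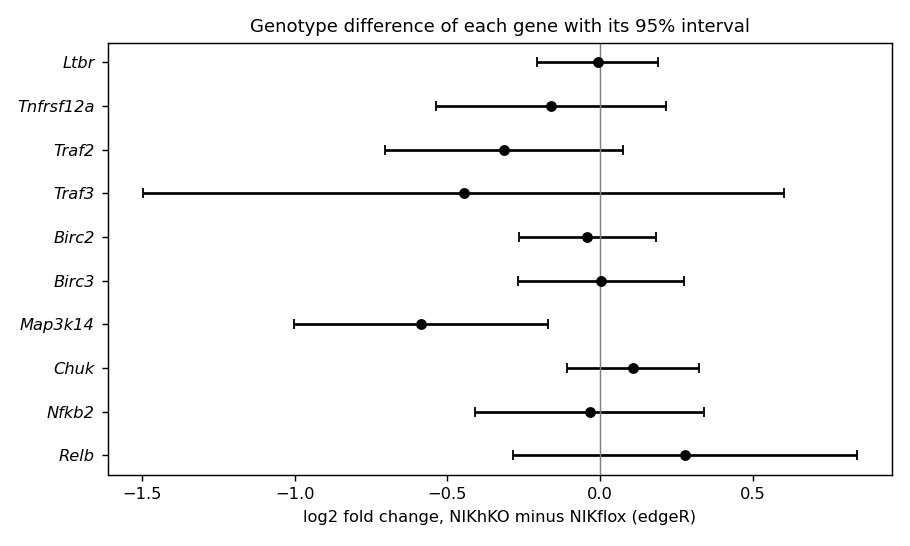
Log2 fold change of each gene (horizontal axis, NIKhKO minus NIKflox, edgeR) with its 95% interval, ordered from receptors through regulators and kinases to NF-kB subunits. The interval of Map3k14 runs from −1.0 to −0.17, those of the other 9 genes include 0, and that of Traf3, from −1.5 to 0.60, is the widest.

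Nfkb2 encodes the p100 precursor and is itself a known NF-kB target, so its promoter is shown for the kappa-B sequences it holds. The sequences are RefSeq promoter windows on GRCm38.p6, 5′ to 3′, of the 250 bases before the transcript start, with matches to the kappa-B consensus in capitals. The Traf3 window is shown beside it because it was the only other member with a match.
Nfkb2, chr19:46304487-46304736, plus strand: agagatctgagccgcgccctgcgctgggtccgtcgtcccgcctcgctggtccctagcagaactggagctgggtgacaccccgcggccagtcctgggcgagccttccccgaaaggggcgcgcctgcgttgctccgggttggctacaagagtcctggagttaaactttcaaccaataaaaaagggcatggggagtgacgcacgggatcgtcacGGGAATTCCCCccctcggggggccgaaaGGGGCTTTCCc
Traf3, chr12:111166120-111166369, plus strand: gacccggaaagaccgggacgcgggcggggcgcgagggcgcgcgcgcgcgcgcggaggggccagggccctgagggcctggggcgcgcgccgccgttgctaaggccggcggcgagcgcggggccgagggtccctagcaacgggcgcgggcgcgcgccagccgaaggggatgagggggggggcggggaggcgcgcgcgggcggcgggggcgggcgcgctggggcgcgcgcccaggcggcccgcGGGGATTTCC

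In the Nfkb2 window the match GGGAATTCCC starts 39 bases and GGGGCTTTCC 11 bases before the transcript start. The former overlaps a second match, shifted by 1 base, on the other strand. A second Nfkb2 start has GGAATGTCCC 236 bases before it and GGGACTTTCC (chr19:46305705-46305714) 10 bases after it. The window of a further Nfkb2 start holds that same GGGACTTTCC, 225 bases before the start. In Traf3 GGGGATTTCC starts 10 bases before the transcript start. Windows of 300 bases (to 50 bases after the start) were found by symbol for 9 of the 10 genes, all but Relb, and searched on both strands. The consensus was found in 8.46% of 32851 such windows of all genes and in 4 of the 12 windows of the members. The latter were those of Traf3 and of the Nfkb2 starts above, some of which share a match. A match is a description of the sequence and not a site shown to be bound.

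The level of Nfkb2 did not differ between the genotypes beyond its spread. It read 1.68, 1.68, 1.64, 2.64 and 2.22 FPKM in NIKflox 1 to 5 and 2.09, 2.15, 1.49, 1.36 and 2.11 FPKM in NIKhKO 1 to 5. The highest value came from NIKflox 4 and the lowest from NIKhKO 4. NIKhKO was at 97.7% of NIKflox, with a 95% interval from 75.3% to 127% (adjusted p = 0.98 in edgeR), and the log2 fold change moved from −0.03 to 0.07 without NIKflox 4. Nfkb2 (chr19:46304320-46312385) is overlapped at its start by the antisense transcript 4833438C02Rik, at 1.02 to 1.91 FPKM in NIKflox and 0.896 to 1.59 FPKM in NIKhKO. The counting is not stated to use strand, so reads of these genes cannot be told apart there.

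Relb, which encodes the partner of p52, was the scarcest gene of the set in NIKflox livers (in NIKhKO it was Map3k14) and varied most within NIKhKO after Traf3. NIKflox 1 to 5 read 0.376, 0.506, 0.356, 0.481 and 0.498 FPKM, and NIKhKO 1 to 5 read 0.504, 0.721, 0.639, 0.282 and 0.432 FPKM. NIKhKO held both the lowest and the 2 highest of the 10 values. The log2 fold change was 0.28 (SE 0.26, adjusted p = 0.79 in edgeR), a 95% interval from 82.0% to 179% of NIKflox, and it was −0.06 without NIKhKO 2 and 3. The counts were 64 to 200 per library.

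The 2 livers with the lowest Traf3, NIKhKO 2 and 3, were the 2 with the highest Relb. Among the other 8 libraries the levels of Traf3 and Relb had a Pearson correlation of 0.19 (log2(FPKM + 1), n = 8), so the relation rests on these 2 libraries. The pair did not share high or low values in the rest of the set: in Traf2, Nfkb2 and Birc2, NIKhKO 2 was the highest NIKhKO liver, while NIKhKO 3 was the lowest or the lowest but one. Summed B and plasma cell markers, of cells known for this pathway, were 13.4 and 15.1 FPKM in NIKhKO 2 and 3, between those of the other NIKhKO livers (6.82 to 16.4 FPKM).

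Traf2 and Birc2 had the most similar pattern of the 45 pairs of members, with a Pearson correlation of 0.78 over the 10 libraries (log2(FPKM + 1)). For this pair it was 0.43 within NIKflox and 0.99 within NIKhKO (n = 5 each). Traf2 with Ltbr reached 0.71 over the 10 libraries, 0.94 within NIKflox and 0.88 within NIKhKO. Nfkb2 with Ltbr and Traf2 each reached 0.70 over the 10 libraries, and the median over all pairs was 0.24. These values share the libraries and their scaling, and are given as a description. Over the 10 libraries Map3k14 followed none of the other members closely, with a largest correlation of 0.44, to Traf2 and Birc2. The genotypes differed in sign: with Traf2 it was 0.55 in NIKflox and −0.82 in NIKhKO, and with Birc2 0.68 and −0.74 (n = 5 each). With Traf3 it was 0.91 in NIKflox, where NIKflox 4 was highest in both genes, and −0.51 in NIKhKO.

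**Figure D3:**
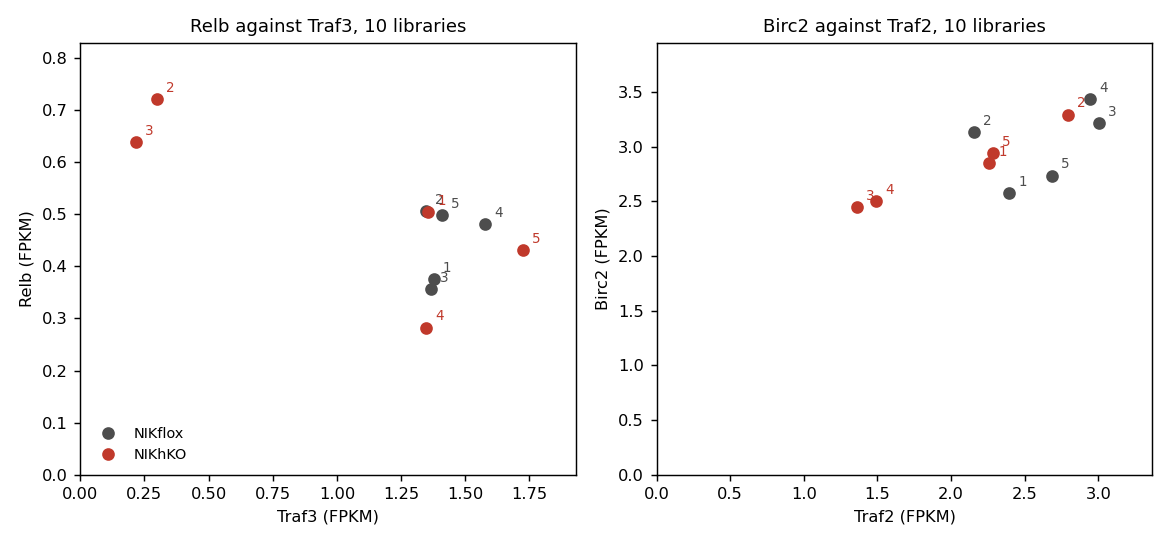
FPKM of Relb against Traf3 (left) and of Birc2 against Traf2 (right) in the 10 libraries, numbered by replicate, NIKflox in grey and NIKhKO in red, axes linear from 0. On the left NIKhKO 2 and 3 lie alone, with Traf3 at 0.301 and 0.218 FPKM; on the right NIKhKO 3 and 4 have the lowest values of both genes.

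Among 9002 genes with a mean of at least 1 FPKM and a regular symbol, the 5 with a pattern most like that of Map3k14 were Isg20, an exonuclease induced by interferon, Surf4 and Serp1 of the endoplasmic reticulum, Vmp1, a membrane protein of autophagy, and Ywhaq, a 14-3-3 protein. Their Pearson correlations with Map3k14 over the 10 libraries (log2(FPKM + 1)) ran from 0.955 for Isg20 to 0.940 for Ywhaq. All 5 were highest in NIKflox 4, and without that library the correlations ran from 0.934 for Isg20 to 0.784 for Ywhaq. Isg20 read 1.40 to 2.13 FPKM in NIKflox and 0.963 to 1.22 FPKM in NIKhKO, apart like Map3k14. Its log2 fold change was −0.54 (adjusted p = 0.35 in edgeR). Ywhaq was also apart, at 17.8 to 22.9 FPKM in NIKflox and 15.6 to 17.3 FPKM in NIKhKO. The 5 genes were picked for following Map3k14, whose groups are apart, so such ranges are no separate result. Of all genes tested, 2.2% had ranges apart.

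The rest of the pathway was described with 52 further genes in 6 lists, of which 34 had a mean of at least 0.5 FPKM. In edgeR 0 of the 52 passed over all genes and 8 had an unadjusted p below 0.05, where 9.98% of all genes did. limma on log2(FPKM + 1) also called 0, and DESeq2, which called 207 of all 12750 genes, called Ccl5 (log2 fold change 0.91, adjusted p = 0.041) and Ccl21a (log2 fold change −1.96, adjusted p = 0.017). The median log2 fold change of the 52 was 0.09, with 30 positive and 22 negative. These tallies include genes at very few counts, such as Lta (unadjusted p = 0.025 in edgeR), which had 0 counts in every NIKflox library. Ranges did not overlap for 1 of them, Ccl5, where they did not for 2.2% of all genes. A pair of broader sets that the table itself annotates was chosen after the table was seen. Of 77 tested genes of the KEGG NF-kappa B pathway log2 fold changes were positive in 40 and negative in 37, and of 71 tested genes with a GO term on NIK or non-canonical NF-kB signalling 36 and 35, with 0 called in each in edgeR. At an unadjusted p below 0.05 there were 11 of the 77 and 13 of the 71, beside the 9.98% of all genes. The KEGG set holds 9 of the 10 members, all but Tnfrsf12a, and the GO set holds 5. Map3k14, the 1 member below that unadjusted p, is in both sets.

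Of the 7 ligands, only Tnfsf12 and Ltb reached 0.5 FPKM on average. Tnfsf12 encodes TWEAK, the ligand of Fn14, and read 8.01 ± 1.61 FPKM in NIKflox livers against 7.54 ± 1.6 in NIKhKO livers (SD, n = 5 each; log2 fold change −0.03, adjusted p = 0.98 in edgeR, and 0.02 without NIKflox 2 and 4). Ltb, the membrane anchor of the lymphotoxin trimer, read 0.478 to 1.2 FPKM in NIKflox and 0.674 to 1.59 FPKM in NIKhKO, with a log2 fold change of 0.71 (SE 0.34, adjusted p = 0.54). Lta, the other lymphotoxin subunit, was listed at 0 counts in every NIKflox library and had 8, 4 and 4 counts in NIKhKO 1 to 3. Cd40lg, the ligand of CD40, had counts in 2 NIKflox livers (7 and 23) and 1 NIKhKO liver (4). No fold is given for genes at such counts.

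The other receptors were mostly scarce, and 0 of 7 passed. Tnfrsf1b, the second TNF receptor, read 6.85 ± 1.24 FPKM in NIKflox livers against 6.21 ± 0.632 in NIKhKO livers (SD, n = 5 each; adjusted p = 0.91 in edgeR). Tnfrsf14, the receptor HVEM for LIGHT, read 0.950 ± 0.244 and 1.16 ± 0.110 FPKM (log2 fold change 0.36, adjusted p = 0.67, and 0.16 without NIKflox 2 and 4). Cd40 read 0.0577 to 0.215 FPKM in NIKflox and 0.0824 to 0.272 FPKM in NIKhKO (adjusted p = 0.55), and Tnfrsf13c, the BAFF receptor of B cells, had 0 to 15 counts in NIKflox and 0 to 32 in NIKhKO. Most markers of B and plasma cells were also higher on average in NIKhKO: the 8 genes summed to 4.24 to 7.60 FPKM in NIKflox and 6.82 to 16.4 FPKM in NIKhKO, none of the 8 was at 0 in any library, and all 6 that were tested had positive log2 fold changes with 0 called. Jchain, a plasma cell marker too low to be tested, went the other way, at 0.274 to 0.769 FPKM in NIKflox and 0.116 to 0.334 FPKM in NIKhKO. Their part in the levels of Ltb, Lta, Cd40 and Tnfrsf13c was not tested.

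Among 10 other regulators of NIK and p100, 0 passed, and log2 fold changes were positive in 6 and negative in 4 (median 0.05). Nlrp12, known as a brake on NF-kB signalling in myeloid cells, had the smallest p. It read 2.52 to 4.45 FPKM in NIKflox and 0.991 to 2.82 FPKM in NIKhKO, a log2 fold change of −0.81 (SE 0.30, adjusted p = 0.39 in edgeR), and −0.53 without NIKflox 2 and 4. NIKhKO 2, 3 and 5 lay under all NIKflox livers and NIKhKO 1 and 4 inside their range. Btrc, the F-box protein that recognises phosphorylated p100, read 0.757 ± 0.0684 and 0.858 ± 0.135 FPKM (SD, n = 5 each; adjusted p = 0.49). Peli1, a ubiquitin ligase reported to act on NIK, read 1.84 ± 0.370 and 2.16 ± 0.271 FPKM (adjusted p = 0.59).

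The 7 targets of RelB and p52, chemokines and other genes of lymphoid stroma, gave 0 calls in edgeR. Log2 fold changes were above 0 in 3 and below 0 in 4 (median −0.29), but only 4 of the 7 had a mean of at least 0.5 FPKM. The signs include that of Madcam1, with 4 counts in NIKhKO 4 alone. They also include that of Ccl21b, with 24 counts in NIKflox 5, 9 in NIKhKO 2 and 0 elsewhere. Ccl21a, a chemokine that draws lymphocytes and dendritic cells, read 0.603, 6.07, 1.27, 2.15 and 2.23 FPKM in NIKflox 1 to 5. In NIKhKO it read 0.653, 0.552, 0.799, 0.425 and 0.541 FPKM. NIKflox 2, the library with adipose and heart transcripts, was far above the rest, and NIKflox 1 lay among the NIKhKO livers. The log2 fold change was −1.96 (SE 0.52, adjusted p = 0.26 in edgeR), −1.29 without NIKflox 2 and −1.13 without NIKflox 2 and 4. Ccl21a has near-identical copies in the mouse genome, between which reads could be split, so its level is uncertain. Ccl19, which binds the same receptor, read 0.244 to 0.820 FPKM in NIKflox and 0.127 to 0.337 FPKM in NIKhKO (log2 fold change −1.02, adjusted p = 0.44) on 8 to 43 counts. Enpp2, which encodes autotaxin, read 4.61 ± 1.19 and 5.78 ± 1.55 FPKM (SD, n = 5 each; adjusted p = 0.54), with a log2 fold change of 0.39 that was 0.66 without NIKflox 2 and 4 (adjusted p = 0.41). Cxcl12, the most abundant of the list, read 31.7 ± 3.32 and 32.2 ± 4.63 FPKM (adjusted p = 0.86).

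**Figure D4:**
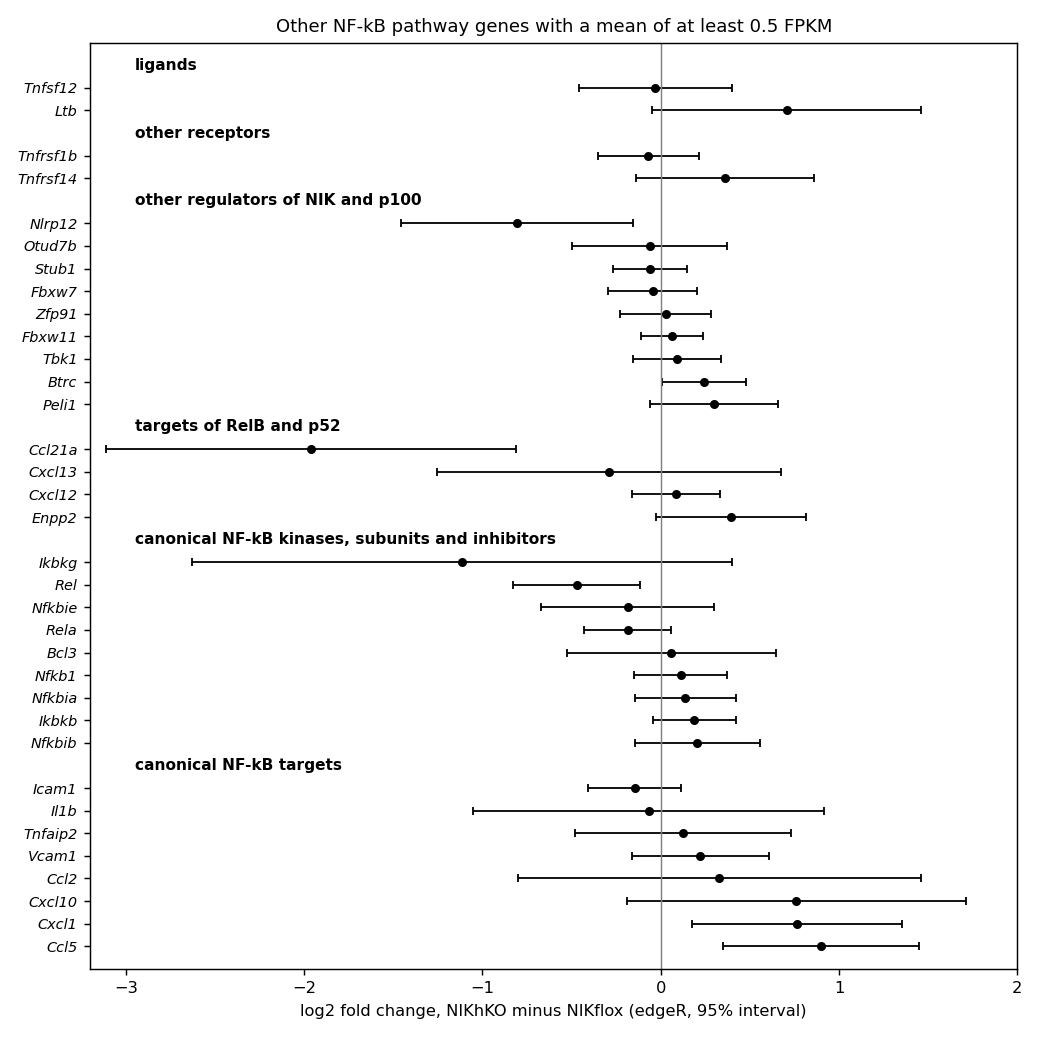
Log2 fold change (horizontal axis, NIKhKO minus NIKflox, edgeR) with its 95% interval for the 34 other pathway genes with a mean of at least 0.5 FPKM, by list. No gene passed the adjusted test; Ccl21a at −1.96 and Ccl5 at 0.90 have the smallest p-values.

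The canonical NF-kB arm was set beside the non-canonical one. Among 10 kinases, subunits and inhibitors 0 was called, and log2 fold changes were positive in 6 and negative in 4 (median 0.09). Rel, the subunit c-Rel of lymphoid and myeloid cells, read 0.572 to 0.899 FPKM in NIKflox and 0.411 to 0.6 FPKM in NIKhKO (log2 fold change −0.47, SE 0.16, adjusted p = 0.36 in edgeR). Rela, the main canonical subunit, read 13.6 ± 2.38 and 11.4 ± 0.899 FPKM, highest in NIKflox 4 at 17.3 FPKM, and Nfkb1, the precursor of p50, read 1.96 ± 0.249 and 2.04 ± 0.176 FPKM (SD, n = 5 each; adjusted p = 0.64 and 0.82). Ikbkb, the canonical kinase IKK beta, read 2.07 ± 0.142 and 2.27 ± 0.340 FPKM (adjusted p = 0.61). Ikbkg, the IKK scaffold NEMO, named after its values were seen, was split within NIKflox: it read 5.29 and 5.33 FPKM in NIKflox 4 and 5 and 0.494 to 1.70 FPKM in the other 8 libraries. The inhibitor Nfkbia read 15.9 ± 2.57 and 16.8 ± 1.74 FPKM (SD, n = 5 each; adjusted p = 0.79).

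Among 11 canonical NF-kB targets 0 was called in edgeR, and log2 fold changes were positive in 8 and negative in 3 (median 0.33). Of the 11, 8 had a mean of at least 0.5 FPKM. The signs include that of Il6, with 8 counts in NIKflox 5, 4 in NIKhKO 2 and 0 elsewhere. Ccl5, a T cell chemokine, read 1.36, 0.792, 0.720, 1.46 and 1.29 FPKM in NIKflox 1 to 5 and 1.96, 1.87, 2.43, 1.89 and 1.91 FPKM in NIKhKO 1 to 5. All NIKhKO livers lay above all NIKflox livers, with a log2 fold change of 0.90 (SE 0.25, adjusted p = 0.27 in edgeR). T and NK cells express Ccl5. Their 8 markers summed to 1.53 to 2.24 FPKM in NIKflox and 1.41 to 2.23 FPKM in NIKhKO. Only 1 of the 8 reached a mean of 0.5 FPKM, so the sum rests on low values. The part of these cells in the Ccl5 level was not tested. Cxcl1, a neutrophil chemokine, read 0.426 to 1.05 FPKM and 0.929 to 1.52 FPKM (log2 fold change 0.77, adjusted p = 0.37), and Cxcl10, induced by interferon, read 0.533 to 2.62 FPKM and 0.740 to 3.46 FPKM (log2 fold change 0.76, adjusted p = 0.62, and 1.2, adjusted p = 0.61, without NIKflox 2 and 4). NIKhKO 2 and 3 had the highest Cxcl1, at 1.5 and 1.52 FPKM.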

How the data were processed

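Liver RNA of 5 NIKflox and 5 NIKhKO mice was read from 1 deposited table. Tools named in the submitters' processing notes, without role or order, are StringTie 1.3.4d, HISAT2 2.0.4, cutadapt 1.9 and edgeR. The notes give hg38 as the build, although the gene identifiers are mouse. Of 55401 genes 51957 (93.8%) have the start and end of GENCODE M21 (GRCm38), 8 of the 10 members among them. The authors deposited FPKM values for each library, per the file headers. The deposited estimated counts are whole numbers and not normalized, per the file headers and values, and genes at 0 counts are listed at 1e-04 FPKM.

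The 10 members and all lists were chosen with earlier results of these data known. From the estimated counts, edgeR 4.0.16 (R 4.3.3; TMM, quasi-likelihood, two-sided, Benjamini-Hochberg) was fitted to all 10 libraries for 12750 genes: those with a mean FPKM of at least 0.5, the members and the listed pathway genes with any count. SE is the log2 fold change over the square root of F, and 95% intervals use the t quantile at 11.3 degrees of freedom. Alternatives used limma 3.58.1, DESeq2 1.42.0, other filters and scalings, counts divided by 4, robust shrinkage, a replicate block, and fewer libraries. The edgeR fit was first tested on simulated data. Named genes were the 10 members, in each list those that passed or else the 3 with the smallest p, and the 5 most correlated with Map3k14. Genes named beyond this (Tnfsf12, Tnfrsf1b, Cxcl12, Nfkb1, Nfkbia, Ikbkg, H3c15, Gm35106) were added after their values were seen. Of 2 rows named Zfp91, the protein-coding one was used.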

Additional observations from a re-analysis of the deposited data

Results flagged for a closer look

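In each genotype the highest and lowest library of the 10 genes were compared with the rest of their group by Dixon's test, 20 groups of 5 in all, of which chance flags about 1. Map3k14 in NIKflox 4, at 0.899 FPKM, stood away from the other 4 NIKflox livers, which read 0.483 to 0.585 FPKM. Traf3 in NIKflox 4, at 1.58 FPKM, stood above the other 4, at 1.35 to 1.41 FPKM. NIKflox 4 is also the library with the most heart muscle transcripts (36 FPKM over 9 markers). It had the lowest summed hepatocyte markers (36336 FPKM) and the lowest mitochondrial share of counts (7.16%) too. The part of these traits in the Map3k14 and Traf3 values was not tested. The low Traf3 values of NIKhKO 2 and 3 were not marked by this test, which looks for 1 library at a time.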

How the results depend on the processing

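Over 21 alternatives 0 of the 10 genes was called, and Map3k14, Chuk, Traf2 and Tnfrsf12a kept the sign of their log2 fold change in all 21. For Map3k14 it ran from −0.66 without NIKhKO 3 to −0.21 with limma on log2(FPKM + 1), a scale that understates low genes, and its adjusted p from 0.13 with DESeq2 to 0.63. Leaving out 1 library at a time gave −0.66 to −0.42. The number of genes called over all genes, 3 in edgeR, was 207 with DESeq2, 0 with limma at either pseudocount (1388 and 1361 genes at an unadjusted p below 0.05), 6 with robust shrinkage, 1 without NIKflox 2 and 4, and 0 to 24 without 1 library, with 0 in 8 of the 10 fits and 24 without NIKhKO 4. The cause was not tested. DESeq2 called 2 other pathway genes. Differences near 0 turned sign: Birc3 to −0.039 and −0.059 with limma on log2(FPKM + 1) and log2(FPKM + 0.1), and Nfkb2, Birc2 and Birc3 to 0.040, 0.031 and −0.068 without NIKflox 2 and 4. Without NIKhKO 2 and 3, an alternative chosen after seeing the data, Relb, Traf3 and Ltbr gave −0.055, 0.13 and 0.013. Without 1 library at a time Nfkb2 ran from −0.097 to 0.075, Birc3 from −0.076 to 0.071 and Ltbr from −0.074 to 0.028.

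With the replicate number as a block (replicate block) 2 genes were called, Birc3 gave −0.00090 and Traf3 −0.84, and no call of a member changed. Libraries with the same number deviated together with correlations of −0.33 to 0.04, and 0 of the 5 correlated best with its own number. The labels do not say whether they share more than a number, and these values do not decide it. Map3k14 had 145 to 427 and Relb 64 to 200 estimated counts per library. With all counts divided by 4 the SE of Map3k14 was 0.191, against 0.189 as deposited.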
